A study of Homo sapiens with 6 samples.

Results

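The RNAs of 10 genes that mark glial lineage and glioma stem cells were followed in LN229 cells, out of the 33841 genes listed in the count table. They were picked by name: SOX2, SOX9, OLIG2, NES, GFAP, CD44, PROM1, S100B, NFIA and POU3F2. LN229 is an established human glioblastoma cell line. The study sequenced 3 biological replicates of the parental cells (WT, genotype PARP3+/+) and 3 of cells in which PARP3 had been disrupted by CRISPR/Cas9 (PARP3-/-), all of them proliferating in serum-containing medium without further treatment. PARP3 is an enzyme that attaches single ADP-ribose units to proteins and DNA ends. The study isolated PARP3-/- clones, and the labels do not say whether these libraries come from a single clone or from several. Loss of PARP3 and other properties of a clone cannot be told apart.

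Glial cells and the stem-like cells of glioblastoma share a set of transcription factors, surface proteins and cytoskeletal proteins. SOX2, OLIG2 and POU3F2 are transcription factors known to sustain a stem-like state in glioblastoma, with OLIG2 also specifying the oligodendrocyte lineage, and SOX9 and NFIA act when neural progenitors turn to a glial fate. NES encodes nestin, the intermediate filament of neural progenitors, GFAP the filament of astrocytes, and S100B a calcium-binding protein of glia. CD44 is the receptor for hyaluronan and is associated with a mesenchymal state of the tumour, and PROM1 (CD133) is a surface protein long used to isolate glioma stem cells.

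Between 29692065 and 46010369 reads per library were counted on genes. The smallest number taken as detected, 3 counts, corresponded to 0.0652 to 0.101 CPM (counts per library size, TMM-scaled in all later values), and this floor reflects counting error alone. The 17144 genes with enough counts were tested with the quasi-likelihood test of edgeR, with p-values adjusted by the Benjamini-Hochberg method over all of them and an adjusted p under 0.05 as the threshold. A second fit had the replicate number as a block, since libraries numbered 1 deviated together. This was less clear for those numbered 2 and weak for those numbered 3. The PARP3 count was 942 to 1273 in WT and 574 to 1004 in PARP3-/- libraries, which overlapped (log2 fold change -0.42, edgeR adjusted p = 0.307, and 0.0469 with the block). That call with the block was lost without WT replicate 1 (adjusted p = 0.160) or PARP3-/- replicate 1 (0.146), where the log2 fold change was -0.16 and -0.15, and the pairs differed by -0.87, 0.0057 and -0.32. Counts on the whole gene include exons outside the deletion and do not check the labels.

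LN229 cells expressed 7 of the 10 markers well above the limit of detection. By TPM (counts scaled by transcript length and library size), S100B and NES stood highest in WT, at 380 ± 93.5 and 359 ± 63.2 TPM (SD, n = 3), and their ranges overlapped. CD44 followed at 228 ± 9.50 TPM (SD, n = 3), and its range lay below that of NES. SOX2 was at 33.4 ± 5.88 TPM (SD, n = 3), below CD44 and above POU3F2 in every WT library. POU3F2 at 13.5 ± 1.12 TPM and OLIG2 at 12.0 ± 1.90 TPM (SD, n = 3) overlapped, and NFIA was lower at 2.16 ± 0.483 TPM (SD, n = 3). The order of S100B, NES and CD44, and that of OLIG2 and NFIA, depended on the transcript length used. CD44 stood first, at 741 TPM, with the median transcript length given in the table, and NES first, at 595 TPM, with merged exons. NFIA, at 4.96 TPM, stood just above OLIG2, at 4.86 TPM, with the table's length, and was at 0.555 TPM with merged exons.

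PROM1, GFAP and SOX9 were at the other end. PROM1 had 12, 7 and 7 counts in the WT libraries and 7, 8 and 4 in the PARP3-/- libraries, given here and throughout in the order of the replicate numbers. GFAP had 3, 11 and 17 counts in WT and 1, 7 and 7 in PARP3-/-. SOX9 had 1 count in WT replicate 1 and 0 in the other 5 libraries. All 3 were below the filter on low counts and were not tested, and their genotypes overlapped. Exons of GFAP are overlapped over 19.9% of their length by CCDC103 on the other strand (at most 4 counts) and those of PROM1 over 2.23% by FGFBP2 on the same strand, where union counting drops reads, and SOX9-AS1 had at most 5 counts. The astrocyte filament and the CD133 RNA were close to the detection limit in both genotypes, whereas nestin RNA was among the abundant ones.

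**Figure D1:**
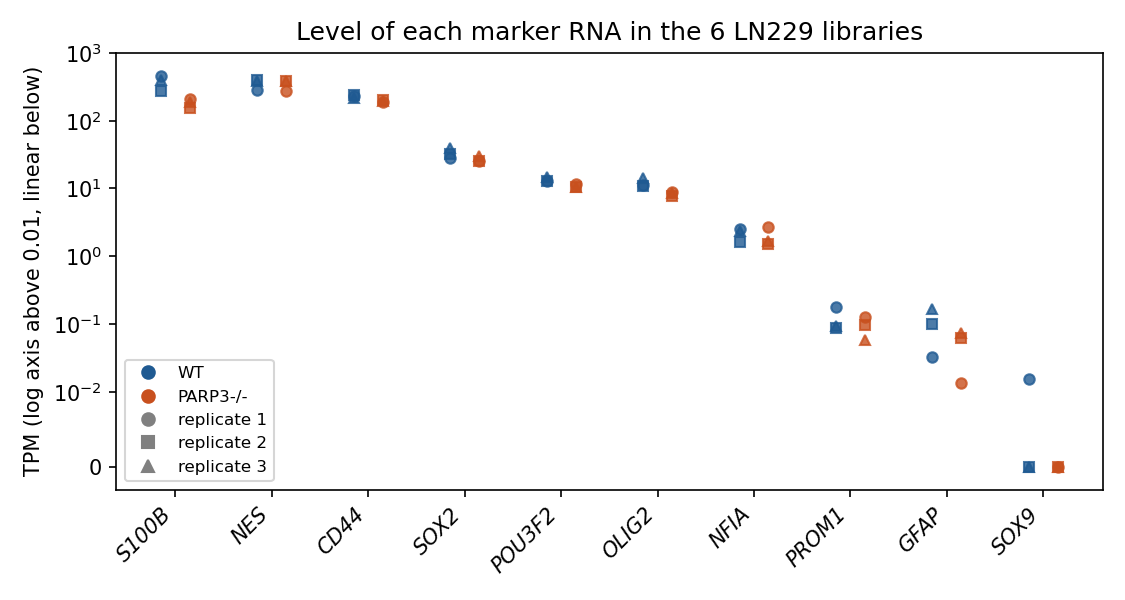
Level of each of the 10 markers in the 6 libraries, in TPM on an axis that is logarithmic above 0.01 and linear below it. Blue points are WT and orange points PARP3-/- libraries, with a symbol for each replicate number. S100B, NES and CD44 lie above 100 TPM and PROM1, GFAP and SOX9 below 0.2 TPM.

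Each of the 7 tested markers had a negative log2 fold change, PARP3-/- over WT, with a median of -0.32, beside -0.01 for all tested genes, of which 51.3% were negative. S100B was the only marker that passed the threshold without the block, where 4.7% of all tested genes passed in either direction (3.33% lower and 1.36% higher in PARP3-/-). With the replicate block, S100B, OLIG2, POU3F2, SOX2 and CD44 passed, 5 of 7, all lower, where 24.3% of all tested genes were called, 12.5% lower and 11.8% higher. DESeq2 called S100B and OLIG2, where 5.93% of its tested genes were called, 3.84% lower and 2.09% higher. Of the 7, 6 were lower in PARP3-/- in each of the 3 same-numbered pairs, as were 27.1% of all tested genes. No marker was called higher in any of these fits (0 at an unadjusted p under 0.05 in edgeR). The fall of an RNA in such bulk samples can mean fewer cells that hold it or less of it per cell, and these cannot be told apart.

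S100B (ENSG00000160307, chromosome 21 from 46598962 to 46605208 in hg38, protein coding) fell 2.09-fold. It was at 234, 147 and 202 CPM in WT and at 105, 78.1 and 95.8 CPM in PARP3-/-. The genotypes did not overlap, with all PARP3-/- values the lower ones, an arrangement that 12% of all tested genes showed, and replicate 2 was the lowest of each genotype. The log2 fold change was -1.06 (standard error 0.19, edgeR adjusted p = 0.0256) and -1.05 with the block (adjusted p = 5.12e-07). Within the same-numbered pairs the difference was -1.15, -0.91 and -1.08 on the log2 scale. Without the block, the call was lost when WT replicate 3 (adjusted p = 0.119), PARP3-/- replicate 2 (0.112) or PARP3-/- replicate 3 (0.108) was left out. In PARP3-/- cells S100B stood at 184 ± 29.5 TPM (SD, n = 3), beside 194 ± 7.43 TPM (SD, n = 3) for CD44, and the 2 ranges overlapped.

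**Figure D2:**
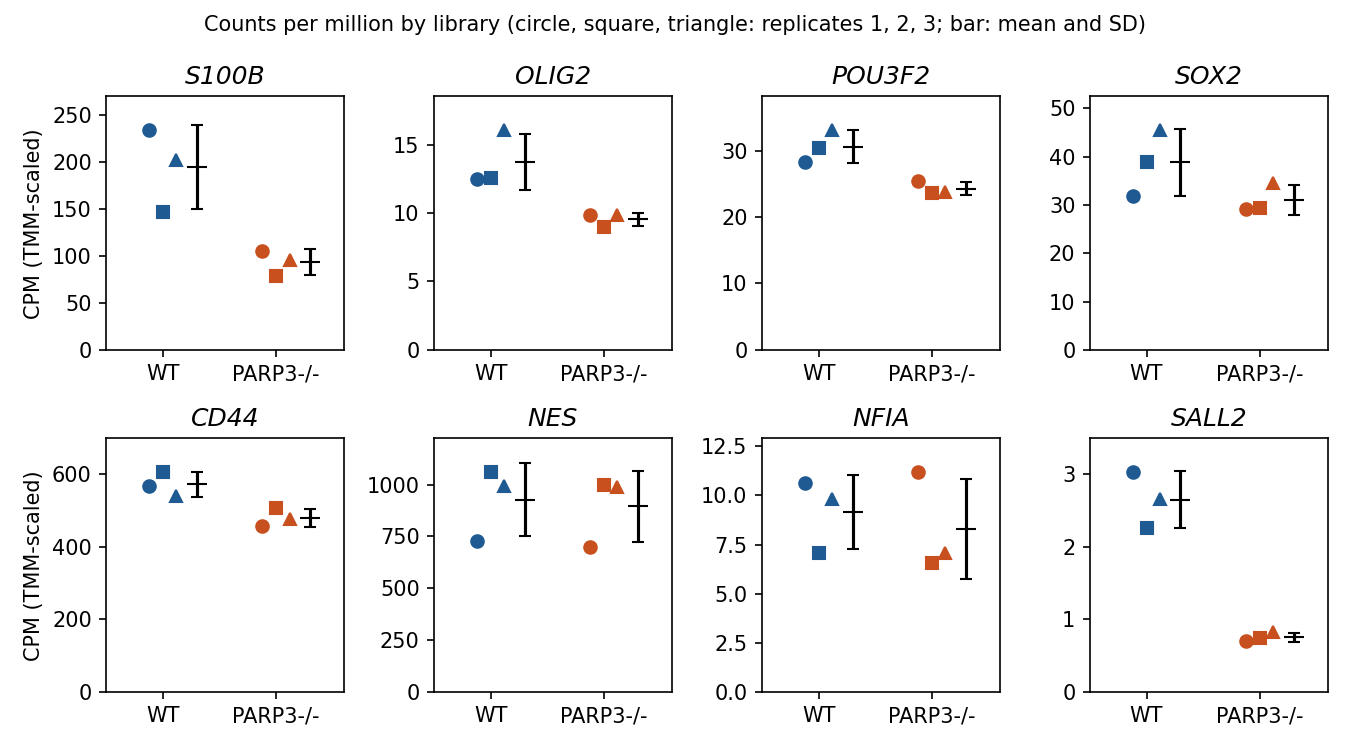
CPM in each library for the 7 tested markers and SALL2, a factor of the stem cell list, on linear axes that start at 0. Symbols mark the replicate number and the bars the mean with its SD (n = 3). S100B, OLIG2, POU3F2, CD44 and SALL2 have every PARP3-/- library below every WT library.

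Among the stem cell factors, OLIG2 (ENSG00000205927, chromosome 21 from 33025845 to 33029196) was 1.44-fold lower in PARP3-/-. It was at 12.5, 12.6 and 16.1 CPM in WT and at 9.82, 8.96 and 9.82 CPM in PARP3-/-. The PARP3-/- libraries lay close together and below all WT libraries, of which replicate 3 was the highest. Its log2 fold change was -0.53 ± 0.13 (standard error), and the adjusted p was 0.0800 in edgeR, 0.00152 with the block and 0.0242 in DESeq2. The call with the block was kept in all 6 fits that left out 1 library, with an adjusted p of at most 0.0109. These are not 6 separate checks. The partner of the library left out is alone in its block and does not inform the genotype difference. Leaving out WT replicate 1 or PARP3-/- replicate 1 thus gave nearly the same log2 fold change, -0.607 and -0.602. OLIG1, the neighbouring paralogue of OLIG2, was barely expressed, with 4 to 35 counts per library.

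POU3F2 (BRN2, ENSG00000184486, chromosome 6 from 98834592 to 98839470), a POU-domain factor, was at 28.2, 30.4 and 33.2 CPM in WT and at 25.4, 23.7 and 23.7 CPM in PARP3-/-. The genotypes did not overlap, but the nearest libraries, WT replicate 1 and PARP3-/- replicate 1, were close to each other. The log2 fold change was -0.33 (standard error 0.087), with an adjusted p of 0.0934 in edgeR and 0.00565 with the block, and the latter call was lost without PARP3-/- replicate 3 (adjusted p = 0.0514).

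SOX2 (ENSG00000181449, chromosome 3 from 181711924 to 181714436), the factor at the centre of neural stem cell identity, was at 31.9, 38.8 and 45.6 CPM in WT and at 29.1, 29.3 and 34.6 CPM in PARP3-/-. PARP3-/- replicate 3 lay above WT replicate 1, so the genotypes overlapped, and yet SOX2 was lower in PARP3-/- within each pair, with differences of -0.13, -0.40 and -0.40 on the log2 scale. The log2 fold change was -0.32 (standard error 0.14), and the adjusted p was 0.335 in edgeR and 0.00516 with the block. The latter call was lost without WT replicate 2 (adjusted p = 0.0553). Without the block, leaving out WT replicate 3 moved the log2 fold change to -0.19.

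The windows of 250 bases before the transcription starts of SOX2 and POU3F2 are given because these are the stem cell factors among the 4 markers matched in the RefSeq promoter table (GRCh38.p14), along with NES and CD44. They lie on the plus strand at chr3:181711675-181711924 and chr6:98834324-98834573. Capitals mark a SOX core (ACAAAG), an octamer part bound by POU factors (ATGCAAA) and CCAAT boxes (CCAAT, or ATTGG on the other strand), searched on both strands.
SOX2: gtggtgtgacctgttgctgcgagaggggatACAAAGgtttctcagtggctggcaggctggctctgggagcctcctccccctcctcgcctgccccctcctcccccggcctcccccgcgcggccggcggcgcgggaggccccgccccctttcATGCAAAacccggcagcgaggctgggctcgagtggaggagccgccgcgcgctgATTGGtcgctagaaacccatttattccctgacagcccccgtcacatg
POU3F2: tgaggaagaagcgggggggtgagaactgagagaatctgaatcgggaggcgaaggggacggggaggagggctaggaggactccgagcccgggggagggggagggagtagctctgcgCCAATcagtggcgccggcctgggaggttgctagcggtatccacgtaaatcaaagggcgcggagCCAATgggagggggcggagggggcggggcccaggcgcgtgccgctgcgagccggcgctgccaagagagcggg
The SOX2 window held 1 ACAAAG, 1 ATGCAAA and 1 CCAAT box, at 220, 100 and 47 bases before the start, and none of these overlapped. The POU3F2 window held 2 CCAAT boxes, at 135 and 72 bases before the start. Of the 35116 promoter windows of the same length, 13.7% held ACAAAG, 3.94% held ATGCAAA and 32% held a CCAAT box. ACAATG was in 9.29% of them, TTGGC in 40.8% and CANNTG in 61.8%. These 3 motifs are not marked in capitals. The POU3F2 window held 3 TTGGC matches, at 136, 73 and 14 bases before the start, of which those at 136 and 73 overlap the CCAAT boxes. The SOX2 window held 1 CANNTG, at 6 bases, and neither window held ACAATG. The matches describe these letters only, and binding was not measured.

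With all 6 libraries, another RNA of the SOX2 locus was likewise called lower only with the block. SOX2-OT, a long noncoding RNA on the same strand whose introns contain SOX2, had 271, 538 and 525 counts in WT and 125, 298 and 272 in PARP3-/-. At 7.42 to 12.8 CPM in WT and 4.15 to 7.20 CPM in PARP3-/-, the genotypes did not overlap. Its log2 fold change was -0.87 (standard error 0.28), with an adjusted p of 0.172 in edgeR and 4.45e-05 with the block, and the differences within pairs were -0.84, -0.94 and -0.83. Without the block, it was called in 1 of the 6 fits that left out 1 library, the fit without WT replicate 1 (edgeR adjusted p = 0.0447). The annotated exons of SOX2-OT shared 0 bases with those of SOX2.

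CD44 (ENSG00000026508, chromosome 11 from 35138870 to 35232402) was at 567, 608 and 541 CPM in WT and at 457, 506 and 478 CPM in PARP3-/-. The genotypes did not overlap and the difference was small, 1.19-fold. Its log2 fold change was -0.25 ± 0.091 (standard error), with an adjusted p of 0.224 in edgeR and 0.00721 with the block, which was lost without WT replicate 2 (adjusted p = 0.0587). Of the transcripts within the CD44 locus, AL133330.1, on the same strand, had 15 to 25 counts in WT and 5 to 12 in PARP3-/- (log2 fold change -1.22, edgeR adjusted p = 0.123, and 0.0199 with the block). CD44-AS1 had at most 2 counts and AL356215.1 at most 14 in any library.

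NES (ENSG00000132688, chromosome 1 from 156668763 to 156677397) showed no detectable difference. It was at 727, 1063 and 991 CPM in WT and at 698, 997 and 990 CPM in PARP3-/-. Replicate 1 was the lowest of both genotypes, and the replicates of a genotype differed by more than the genotypes did. The log2 fold change was -0.05 (standard error 0.20, edgeR adjusted p = 0.957, and 0.566 with the block), and it turned positive without WT replicate 2 (0.05) or PARP3-/- replicate 1 (0.10).

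NFIA (ENSG00000162599, chromosome 1 from 60865259 to 61462793), the factor of the gliogenic switch, likewise overlapped, at 10.7, 7.05 and 9.83 CPM in WT and 11.2, 6.55 and 7.09 CPM in PARP3-/-. Its highest and lowest libraries were both PARP3-/-. Its log2 fold change was -0.15 ± 0.25 (standard error, edgeR adjusted p = 0.867, and 0.317 with the block). Without the block it ran from -0.43 without PARP3-/- replicate 1 to -0.0050 without PARP3-/- replicate 2. Among the tested markers, NFIA was the one whose pairs differed in sign, with 0.07 in pair 1, -0.11 in pair 2 and -0.47 in pair 3. NFIA-AS2, an RNA antisense to NFIA that shares 0 exon bases with it, had 42, 43 and 59 counts in WT and 23, 26 and 20 in PARP3-/- (log2 fold change -0.96, edgeR adjusted p = 0.0779, and 0.0138 with the block). That call with the block was lost without WT replicate 3 (adjusted p = 0.112), and without PARP3-/- replicate 3. Of the family members of NFIA and POU3F2, 4 were tested and 0 were called by edgeR in either fit or by DESeq2 (0 at an unadjusted p under 0.05), with NFIB at 23.5 ± 0.271 and NFIX at 9.0 ± 0.562 TPM in WT (SD, n = 3) above NFIA.

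**Figure D3:**
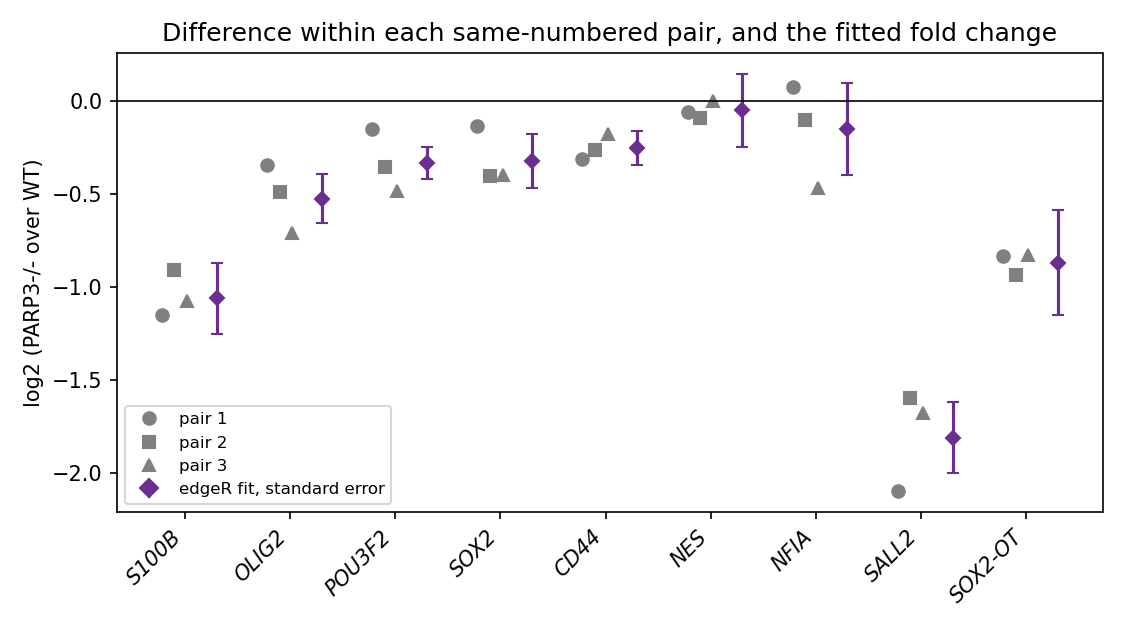
Log2 difference, PARP3-/- over WT, within each same-numbered pair of libraries (grey symbols) and the edgeR log2 fold change with its standard error (diamonds), for the 7 tested markers, SALL2 and SOX2-OT. The grey points of all but NFIA lie below 0 in every pair, and those of NES are within 0.1 of 0.

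Around the markers, 103 genes of 10 lists of related genes were tested, and 5 were called lower and 3 higher without the block. With it, 24 and 24 were called, where 12.5% of all tested genes were called lower and 11.8% higher. Among the 21 tested neural stem and progenitor genes, edgeR called 3 lower and 0 higher, where 3.33% of all tested genes were called lower and 1.36% higher. The numbers were 6 and 6 with the block, and 3 and 2 by DESeq2. SALL2, a zinc-finger factor that acts with SOX2, OLIG2 and POU3F2 in glioblastoma stem cells, was 3.50-fold lower. It had 111, 95 and 109 counts in WT and 21, 33 and 31 in PARP3-/- (log2 fold change -1.81, standard error 0.19, edgeR adjusted p = 0.00294). The call was kept with each of the 6 libraries left out in turn. It was lost in edgeR without both libraries numbered 2 (adjusted p = 0.0580) or both numbered 3 (0.124).

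ID2, an inhibitor of helix-loop-helix factors, fell by 0.93 on the log2 scale (edgeR adjusted p = 0.0230). ALDH1A1, an aldehyde dehydrogenase used as a stem cell marker, fell by 1.47 (edgeR adjusted p = 0.0236). Its relative ALDH1A3 was the most abundant RNA of the list, at 1237 ± 81.1 TPM in WT and 1557 ± 43.7 TPM in PARP3-/- (SD, n = 3), and its call depended on the test (adjusted p = 0.173 in edgeR, 0.00405 with the block and 0.00174 in DESeq2). The integrin ITGA6, at 249 ± 28.5 TPM in WT, overlapped with ID1 at 210 ± 52.6 TPM (SD, n = 3). Without the block, ID2 lost its call when WT replicates 2 or 3 (adjusted p = 0.0831 and 0.117) or PARP3-/- replicates 2 or 3 (0.121 and 0.122) were left out. ALDH1A1 lost it without WT replicates 2 or 3 (0.0681 and 0.105) or PARP3-/- replicates 1 or 2 (0.0588 and 0.118). The median log2 fold change of the list was 0.04.

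Among 10 tested astrocyte genes, edgeR called 2 higher and 0 lower, beside 1.36% and 3.33% of all tested genes. With the block it called 4 higher and 3 lower, beside 11.8% and 12.5%. DESeq2 called 3 higher and 2 lower, beside 2.09% and 3.84%. SLC1A3, the glutamate transporter GLAST, was 2.02-fold higher, at 7.89, 7.03 and 9.14 CPM in WT and 16.7, 15.4 and 16.5 CPM in PARP3-/- (log2 fold change 1.01, standard error 0.12, edgeR adjusted p = 0.00508). It was called in each of the 6 fits without 1 library, but not without both libraries numbered 2 (edgeR adjusted p = 0.0889) or both numbered 3 (0.110). ALDOC, the aldolase of astrocytes, rose by 0.75 (adjusted p = 0.0418), a call lost without WT replicates 2 or 3 (0.0805 and 0.139) or PARP3-/- replicates 2 or 3 (0.168 and 0.167). FABP7, the brain lipid-binding protein of radial glia, was at 79.6, 42.0 and 65.1 CPM in WT and 34.5, 19.0 and 22.9 CPM in PARP3-/-, with no overlap. Its log2 fold change was -1.29, with an adjusted p of 0.0577 in edgeR, above the threshold, 5.38e-07 with the block and 0.000348 in DESeq2. FABP7 was chosen after its values were seen. VIM was the most abundant, at 3774 ± 34.2 TPM in WT, and ID3 at 174 ± 23.9 TPM overlapped with FABP7 at 172 ± 55.3 TPM (SD, n = 3), while AQP4, ALDH1L1 and SLC1A2 had at most 10 counts in any library. HEPACAM had 72 and 103 counts in the libraries numbered 1 and 5 to 7 in the other 4.

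Among oligodendrocyte lineage RNAs, SOX10 was abundant although OLIG1 was not. SOX10, the factor that drives the lineage, was at 135 ± 9.67 TPM in WT (SD, n = 3). Of 12 tested genes of this list, 10 had a negative log2 fold change, and the median was -0.14. Without the block 0 were called, beside 4.7% of all tested genes. With the block 3 were called lower and 2 higher, beside 12.5% and 11.8% of all tested genes. By DESeq2 1 was called, beside 5.93% of its tested genes. At an unadjusted p under 0.05 edgeR had 4, beside 2788 of all 17144 tested genes. For SOX10 the log2 fold change was -0.22 (edgeR adjusted p = 0.201, and 0.0145 with the block).

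**Figure D4:**
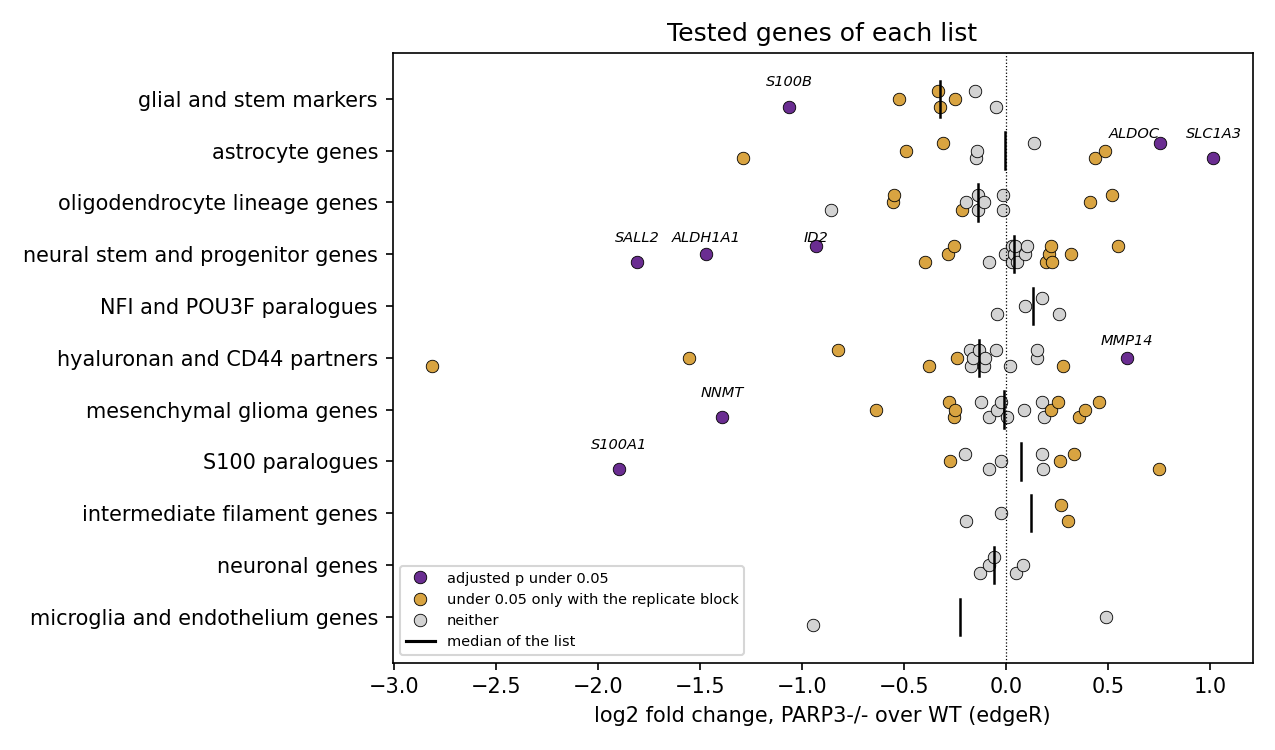
Log2 fold change of every tested gene of each list, with the list's median as a vertical line. Purple points passed an adjusted p under 0.05, yellow points only with the replicate block, and grey points neither. The 7 markers lie to the left of 0, and the other lists have genes on both sides. To the left are 56 of all 103 tested genes of the other lists. Among them are 10 of 12 oligodendrocyte lineage genes, 12 of 17 hyaluronan and CD44 partners and 8 of 21 neural stem and progenitor genes.

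The remaining called genes were spread over 3 lists. MMP14, a membrane metalloproteinase that cleaves CD44, rose by 0.59 (edgeR adjusted p = 0.0116). It was the 1 called among 17 hyaluronan and CD44 partners, whose median was -0.14. The block gave 5 lower and 2 higher among these partners, and DESeq2 gave 2 and 2. MSN, a linker of CD44 to actin, had the highest TPM of this list in WT, at 161 ± 11.6, and MMP14 at 84.4 ± 7.37 overlapped with TMEM2 at 84.2 ± 10.7 (SD, n = 3). NNMT, a methyltransferase of nicotinamide, fell by 1.39 (adjusted p = 0.0124) and was the 1 called among 18 mesenchymal glioma genes, whose median was -0.01. The block gave 5 lower and 5 higher there, and DESeq2 gave 2 and 0. ANXA2 and ANXA1 were the most abundant of these, at 1741 ± 513 and 1176 ± 230 TPM in WT (SD, n = 3). S100A1, a paralogue of S100B, fell by 1.89 (adjusted p = 0.0228), from 136, 81 and 137 counts in WT to 26, 25 and 38 in PARP3-/-. It was the 1 called among 10 S100 paralogues, of which S100A6 and S100A10 had the highest TPM and were not called. The block gave 2 lower and 3 higher S100 paralogues, and DESeq2 gave 1 and 0. Over all tested genes, edgeR called 3.33% lower and 1.36% higher without the block. The shares were 12.5% and 11.8% with the block, and 3.84% and 2.09% by DESeq2. Without the block, single libraries decided these calls. MMP14 lost its call without WT replicate 3 (adjusted p = 0.0752) or PARP3-/- replicate 2 (0.0715), and NNMT without WT replicate 3 (0.0708) or PARP3-/- replicate 3 (0.0685). S100A1 lost it without WT replicate 3 (0.106) or any of PARP3-/- replicates 1, 2 and 3 (0.0549, 0.0996 and 0.0655). With the block, these 3 genes were called in all 6 such fits, which, as for OLIG2, are not 6 separate checks.

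Markers of cells other than glia were low or did not differ. Of the neuronal genes, RBFOX3, STMN2 and NEUROD1 had at most 2 counts in any library, and the list summed to 84.0 to 170 CPM in WT and 90.5 to 156 CPM in PARP3-/-, mostly from SYT1. The microglia and endothelium genes summed to 0.620 to 1.29 CPM in WT and 0.609 to 1.23 CPM in PARP3-/-, and 0 of these lists' 7 tested genes were called by edgeR in either fit or by DESeq2 (0 at an unadjusted p under 0.05). Of the intermediate filament genes, LMNA was the most abundant by TPM in WT, and LMNB1 overlapped with SYNM. Of 4 tested, 0 were called without the block in edgeR or by DESeq2 (1 at an unadjusted p under 0.05 in edgeR). With the block 2 were called higher, beside 11.8% of all tested genes.

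S100B and OLIG2 are both on chromosome 21, whose 196 other tested genes had a median log2 fold change of 0.05. The tested genes within 5 Mb of S100B had a median of 0.05 and those within 5 Mb of OLIG2 one of 0.04, and 3 of 63 and 1 of 71 were called lower. Over the 6 libraries, the gene most like S100B in log2 CPM was SEMA3B, with Pearson's r of 0.998. For OLIG2 it was HLA-DMA (0.996) and for POU3F2 LRRC23 (0.994). The 6 points share their libraries and depth, and 735, 392 and 508 of the other tested genes had an r over 0.9 with S100B, OLIG2 and POU3F2.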

How the data were processed

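RNA was measured in 6 LN229 libraries, 3 per genotype, assigned from their labels. The deposited values are raw read counts per Ensembl 91 gene. To make these counts, the authors trimmed reads with cutadapt 1.10, removed those on ribosomal and spike-in RNA with Bowtie2 2.2.8, aligned the rest to hg38 with STAR 2.5.3a and counted them with HTSeq 0.6.1p1 in union mode, which drops reads on several genes. The strand setting is not given in the sources used here. The libraries were made from ribosome-depleted total RNA by the methods, whereas the labels name polyA RNA. Another 12 columns of values per sample and the authors' own comparison (log2 ratios, p-values) were not used. The deposited table also gives a median transcript length per gene.

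In R 4.3.3, counts were tested with edgeR 4.0.16 (TMM, filterByExpr with a minimum count of 10, quasi-likelihood, Benjamini-Hochberg). Standard errors were computed from each F value and fold change. TPM used the Ensembl canonical transcript length of GENCODE 44. The procedure was tested on simulated counts. Libraries numbered 1 deviated together from their genotype means, and those numbered 2 less clearly. Correlations across genes were 0.635, 0.465 and 0.208 for numbers 1, 2 and 3 (-0.584 to 0.361 for unlike numbers). The value for number 3 was below that of WT replicate 2 with PARP3-/- replicate 3 (0.361). It was also below that of WT replicate 3 with PARP3-/- replicate 2 (0.234). Deviations from a mean of 3 libraries cancel out, so a distant replicate 1 can by itself raise the correlations among numbers 2 and 3. The labels name no pairs, so taking the numbers as pairs is an assumption. Number 3 does not bear it out, and number 2, at 0.465 beside 0.361, does so only weakly. Replicates differed by more than sampling noise, the closest being PARP3-/- replicates 2 and 3 (chi-square 4.08 per degree of freedom). WT replicates 2 and 3 were at 12.1. Replicate 1 was the most distant in each genotype. It was at 106 and 72.4 from WT replicates 2 and 3, and at 66.5 and 52.7 from PARP3-/- replicates 2 and 3. The replicates are described as biological, from independent experiments, and p-values measure the spread between these samples. The alternatives were DESeq2 1.42.0, other size factors, other filters, a stricter call rule, the replicate block and libraries left out. The length-based TPM alternatives and the block with libraries left out were added after seeing the data. With the block, the same-numbered partner of a library left out is alone in its block. Leaving out either library of a number therefore gave nearly the same fit.

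The markers and gene lists were chosen with earlier results of these data known. Named were every marker, PARP3, transcripts overlapping a marker, the called genes of each list with its 2 genes of highest TPM, and for 3 markers the gene of most similar pattern. One gene that this rule names is not reported here.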

Additional observations from a re-analysis of the deposited data

How the results depend on the processing

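Of the 7 tested markers, 1 was called lower. DESeq2 called 2 lower, the replicate block 5, leaving out both libraries numbered 1 gave 4 and both numbered 3 gave 0, and an adjusted p under 0.001 with a log2 fold change beyond 1 gave 0. Leaving out 1 library gave 0 or 1 without the block and 3 to 5 with it. Of the related genes, 5 were called lower and 3 higher. DESeq2 called 10 and 8, no filter on low counts 10 lower, and the replicate block 24 and 24. Leaving out both libraries numbered 1, 2 or 3 gave 19, 1 and 0 lower and 23, 0 and 0 higher, and the stricter rule gave 0 and 0. Leaving out 1 library gave 1 to 8 lower and 1 to 3 higher without the block. With the block it gave 18 to 30 lower and 15 to 33 higher. Over all genes, 571 were lower and 234 higher, and 2143 and 2023 with the block, 871 and 475 by DESeq2, and 76 and 6 by the stricter rule. The filter at a mean count of 50 gave 331 lower genes. Leaving out both libraries numbered 1, 2 or 3 gave 1739, 161 and 75 lower and 1536, 12 and 6 higher. Leaving out 1 library gave 281 to 606 lower and 49 to 259 higher without the block. With the block it gave 1399 to 2486 lower and 1159 to 2412 higher. NES turned positive in 2 fits, with a range of -0.20 to 0.10 over the libraries left out, and NFIA was at 0.0052 without both libraries numbered 3. The cause was not tested. The other size factors and the filter at a mean count of 50 moved none of these counts of markers or related genes. The alternative of length-scaled deposited values was not run. With 3 libraries per genotype and no clone named, small differences such as those of CD44 and SOX2 rest on how the replicates are treated. With all 6 libraries, edgeR called them only with the block. Without the block and both libraries numbered 1, edgeR called SOX2 (adjusted p = 0.0165) and not CD44 (0.0501). These values were 0.903 and 0.805 without both libraries numbered 2, and 0.957 and 0.977 without both numbered 3.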
